A study of Homo sapiens with 4 samples.

Results

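The 10 genes described here code for plakins, for precursors of the cornified envelope and for the transglutaminases that join them: EVPL, PPL, IVL, SCEL, DSP, PLEC, DST, TGM1, TGM2 and FLG. Each was found by its symbol as 1 row of a table of 58825 genes. The genes were chosen by name with their FPKM in the knockdown and control libraries already known, among them the higher EVPL and the lower PPL, IVL and SCEL of the knockdown. The differences between knockdown and control below are therefore a description, and no p-value is given for any of the 10.

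RNA was sequenced from cells labelled HaCaT, an immortalised line of human keratinocytes, in 2 groups of 2 libraries each. In the lnc-DC knockdown group (shlnc-DC) the cells had received a lentivirus whose hairpin targets lnc-DC, a long noncoding RNA, and in the control group (shNC) a lentivirus carrying a control hairpin. All cells of both groups grew in MEPICF500 medium with 1.2 mM calcium, and the study asked how silencing lnc-DC alters keratinocytes induced to differentiate. The labels name 1 hairpin treatment per group, so an effect of the hairpin and an effect of losing lnc-DC cannot be told apart. Values are FPKM, sequenced fragments scaled to the length of the transcript and the size of the library, a level per length that allows genes to be compared within a library.

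Plakins are very large proteins that tie intermediate filaments to cell contacts. Desmoplakin anchors keratins at desmosomes, plectin and dystonin anchor them at hemidesmosomes, and envoplakin and periplakin, which pair with each other, line the membrane where the cornified envelope begins to form. In the upper epidermis transglutaminases then cross-link these 2 plakins with involucrin, sciellin and other precursors into the insoluble envelope, while filaggrin bundles keratin inside the cell.

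Across the 4 libraries 22351 to 22780 genes had a value above 0. Total read counts are not part of the table, so the depth is unknown and no counting interval is given. The targeted transcript, WFDC21P, had 0.09 and 0.29 FPKM in the knockdown libraries, against 2.15 and 2.76 FPKM in the control libraries. These values did not overlap, yet WFDC21P did not pass the test over all genes described below (limma adjusted p = 0.0715). A gene that did not pass that test is therefore not shown to be unchanged. Of 12 keratinocyte markers, 9 reached 1 FPKM in all 4 libraries. The others were the basal keratin KRT14 and KRT16 and KRT17, which did not exceed 0.35 and 0.85 FPKM. KRT14 did not exceed 0.35 FPKM, which is low for a keratinocyte line and taken alone goes against the label HaCaT. KRT5, TP63, DSG3 and COL17A1 were among the 9 that reached 1 FPKM. The summed level of the 12 markers was 254.6 and 280.3 FPKM in the knockdown libraries, against 465.9 and 482.4 FPKM in the control libraries. KRT5 was its largest part, with 123.71 and 156.10 FPKM in the knockdown libraries, against 270.10 and 304.42 FPKM in the control libraries. COL17A1 was higher in both knockdown libraries, and KRT16, TP63 and ITGB4 overlapped, so the sum does not speak for every marker. All 5 markers of simple epithelium (KRT7, KRT8, KRT18, KRT19 and EPCAM) reached 1 FPKM in all 4 libraries. Their sums were 918 and 902 FPKM in the knockdown libraries, against 1081 and 1159 FPKM in the control libraries. KRT19 differed most between the groups, and KRT7 and EPCAM overlapped. The identity of the line was not tested beyond these markers, nor was the part of these shifts in the results below. None of 6 fibroblast or 5 melanocyte markers reached 1 FPKM in all libraries, and their highest values were 0.61 and 0.47 FPKM. Of 4 leukocyte markers CD68 and CD14 reached 1 FPKM, and the pan-leukocyte marker PTPRC was listed at 0 in all 4 libraries.

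EVPL and PPL, the 2 plakins that pair in the envelope, lay on opposite sides of the control. EVPL, which codes for envoplakin, had 6.11 and 5.06 FPKM in the knockdown libraries, against 1.79 and 1.89 FPKM in the control libraries. Both knockdown values lay above both control values, with means of 5.59 ± 0.742 and 1.84 ± 0.0707 FPKM (SD, n = 2 each), a 3.04-fold higher level in the knockdown. On the log2(FPKM + 1) scale the difference was 1.21 (SE 0.139), and it lay between 1.09 and 1.55 over 12 other ways of processing. Among these, a change of filter, of the variance trend or a replicate term cannot change a difference of group means. PPL, which codes for periplakin, had 17.80 and 17.54 FPKM in the knockdown libraries, against 24.93 and 22.18 FPKM in the control libraries. Here both knockdown values lay below both control values, with means of 17.7 ± 0.184 and 23.6 ± 1.94 FPKM (SD, n = 2 each), a 1.33-fold lower level in the knockdown. In RNA from a whole culture, fewer cells that carry a transcript and less of it per cell cannot be told apart.

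PPL exceeded EVPL in every library, but by a different margin. The ratio of EVPL to PPL FPKM was 0.343 and 0.288 in the knockdown libraries, against 0.0718 and 0.0852 in the control libraries. A ratio within a library does not depend on how that library was scaled, and its mean was 4.02 times as high in the knockdown group. EVPL lies on the minus strand of chromosome 17, from 76004502 to 76027452 (GRCh38, GENCODE 29), and PPL on the minus strand of chromosome 16, from 4882507 to 4960741. The EVPL locus overlaps CDK3 and the readthrough gene TEN1-CDK3 on the other strand without sharing exon bases. TEN1-CDK3 had 3.49 and 3.18 FPKM in the knockdown libraries, against 3.12 and 2.97 FPKM in the control libraries, also without overlap but closer together than the values of EVPL. CDK3 had 0.52 and 0.87 FPKM in the knockdown libraries, against 1.56 and 0.35 FPKM in the control libraries, and these ranges overlapped. The table lists 5 transcripts for EVPL, of 545 to 6614 bases, and gives 1 value for all of them together.

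Of the plakins of desmosomes and hemidesmosomes, DSP and DST overlapped between the groups. In FPKM as given, PLEC differed by about as much as PPL but in the other direction. DSP, which codes for desmoplakin, had 62.63 and 61.40 FPKM in the knockdown libraries, against 75.56 and 62.01 FPKM in the control libraries. The groups overlapped narrowly, and the means of 62.0 ± 0.870 and 68.8 ± 9.58 FPKM (SD, n = 2 each) differed by less than the spread of the control libraries. The log2 difference of DSP, -0.14 over all libraries, was 4.58e-05 without control replicate 1 and -0.28 without control replicate 2. PLEC, which codes for plectin and lies on chromosome 8, had 9.66 and 8.80 FPKM in the knockdown libraries, against 6.96 and 6.83 FPKM in the control libraries. Both knockdown values of PLEC lay above both control values, a 1.34-fold higher mean. Under quantile normalization the log2 difference was 0.27 for PLEC and -0.51 for PPL, so their likeness in size depends on the scaling.

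DST, which codes for dystonin, the hemidesmosomal antigen BP230 and its longer relatives, had 2.78 and 2.35 FPKM in the knockdown libraries, against 3.02 and 1.75 FPKM in the control libraries. The knockdown values fell between the control values, so no direction can be given, and the log2 difference of 0.10 became 0.37 without control replicate 1 and -0.18 without control replicate 2. The table lists 40 transcripts for DST, and the epithelial form cannot be told from the others in a value per gene.

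The same values can be read as shares of the plakin family, to which MACF1, a spectraplakin that links actin to microtubules, and EPPK1 (epiplakin), a keratin-binding plakin built of plakin repeats alone, also belong. DSP made up 61.8% and 63.2% of the summed FPKM of the 7 plakin genes in the knockdown libraries, against 66.2% and 64.6% in the control libraries. PPL made up 17.6% and 18.1% in the knockdown libraries, against 21.8% and 23.1% in the control libraries. EVPL made up 6.03% and 5.21% in the knockdown libraries, against 1.57% and 1.97% in the control libraries. The summed level itself was 101.3 and 97.2 FPKM in the knockdown libraries, against 114.2 and 95.9 FPKM in the control libraries, and these ranges overlapped. MACF1 had 2.12 and 1.86 FPKM in the knockdown libraries, against 1.68 and 1.11 FPKM in the control libraries, and did not pass the test over all genes (limma adjusted p = 0.346). EPPK1 did not exceed 0.21 FPKM in any library, and EVPLL, a shorter relative of EVPL, did not exceed 0.37 FPKM.

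**Figure D1:**
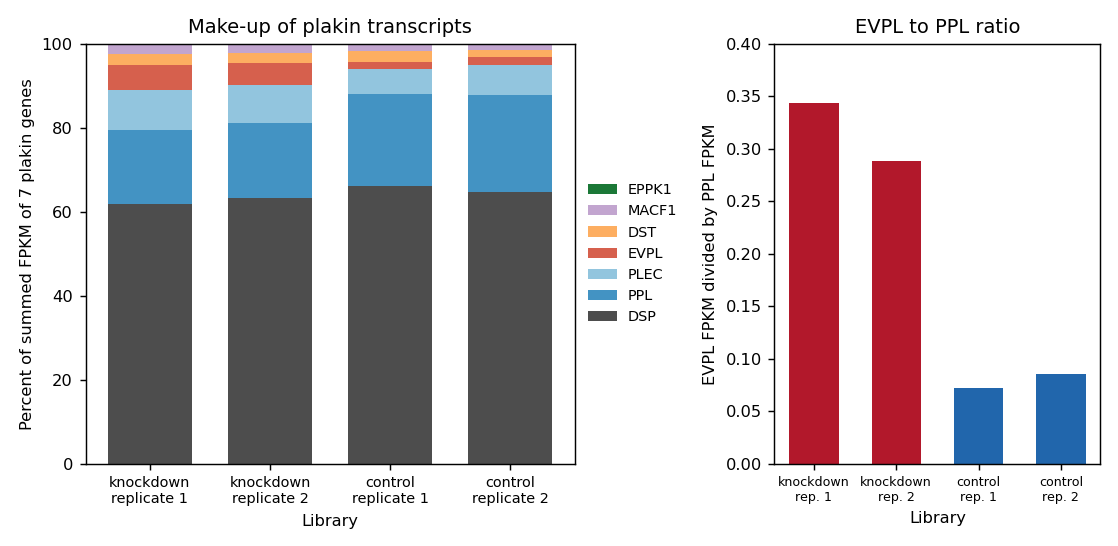
Left, share of each of 7 plakin genes in their summed FPKM (percent, stacked, 1 bar per library); right, EVPL FPKM divided by PPL FPKM in each library (bars from 0). DSP is the largest share in all 4 libraries, EPPK1 is too small to see, and the EVPL to PPL ratio is 0.343 and 0.288 in the knockdown libraries, against 0.0718 and 0.0852 in the control libraries.

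The envelope precursors IVL and SCEL were lower in both knockdown libraries, whereas FLG was low throughout. IVL, which codes for involucrin, a scaffold laid down early in envelope assembly, had 3.84 and 4.23 FPKM in the knockdown libraries, against 8.48 and 9.99 FPKM in the control libraries. The groups did not overlap, with means of 4.04 ± 0.276 and 9.24 ± 1.07 FPKM (SD, n = 2 each), a 2.29-fold lower level in the knockdown and a log2 difference of -1.02 (SE 0.132). SCEL, which codes for sciellin, a precursor with repeats that transglutaminases can cross-link, had 1.24 and 1.23 FPKM in the knockdown libraries and 2.12 FPKM in each control library. That was a 1.72-fold lower mean in the knockdown, and the log2 difference was -0.48 with a pseudocount of 1 and -0.73 with a pseudocount of 0.1. FLG, which codes for the filaggrin precursor, had 0.64 and 0.48 FPKM in the knockdown libraries, against 0.61 and 0.34 FPKM in the control libraries. These ranges overlapped, and without control replicate 2 the FLG difference turned from 0.08 to -0.05 on the log2 scale. FLG shares 704 exon bases with FLG-AS1 on the other strand, which did not exceed 0.29 FPKM; the strand setting of the counting is not given in the sources used here.

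The stretches before the start sites of the precursor genes are shown because involucrin transcription in keratinocytes is known to use AP-1 sites, and AP-1 factors were measured here too. IVL lies on the plus strand of chromosome 1, from 152908545 to 152911886, SCEL on the plus strand of chromosome 13, from 77535674 to 77645263, and FLG on the minus strand of chromosome 1, from 152302175 to 152325203 (GRCh38, GENCODE 29). The sequences are from RefSeq (GRCh38.p14), 5′ to 3′ on the strand of the gene, at chr1:152908396-152908525 for IVL, chr13:77535544-77535673 for SCEL and chr1:152325260-152325389 for FLG. Capitals mark the AP-1 motif TGAGTCA, read on either strand, and the TATA box motif TATAAA, likewise on either strand; the marked motifs do not overlap.
IVL: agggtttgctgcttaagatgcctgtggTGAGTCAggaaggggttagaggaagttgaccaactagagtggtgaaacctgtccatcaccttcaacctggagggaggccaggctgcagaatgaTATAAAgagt
SCEL: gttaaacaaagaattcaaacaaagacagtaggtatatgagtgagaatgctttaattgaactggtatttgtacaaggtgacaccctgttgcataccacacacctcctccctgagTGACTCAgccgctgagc
FLG: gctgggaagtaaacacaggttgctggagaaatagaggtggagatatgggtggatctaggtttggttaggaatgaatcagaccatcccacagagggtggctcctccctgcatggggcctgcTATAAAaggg

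Distances are counted to the RefSeq start sites, at position 152908546 for IVL, 77535706 for SCEL and 152325239 for FLG, which differ from the gene starts of GENCODE 29 given above. The AP-1 letters begin 123 bases before the RefSeq start of IVL and 49 bases before that of SCEL, where they stand on the minus strand. The TATA box letters begin 30 bases before the RefSeq start in both IVL and FLG. Promoter windows of 300 bases (250 before the start and 50 after it) were searched for 5 of the 10 genes. These were IVL, SCEL, FLG, DSP and DST, the last with 3 windows. Windows on chromosome 8, where PLEC lies, were left out of the search of the 10 genes, and EVPL, PPL, TGM1 and TGM2 had none. The AP-1 letters occurred in windows of IVL, SCEL and DST, where they lie 25 bases after the start of 1 of its 3 windows, and in 4.95% of all 35116 windows in the table. TATAAA occurred in 11.5% of all windows. The GC box letters GGGCGG, also read on either strand, occurred 8 times in the DSP window and in 45.0% of all windows. A match is a description of the letters and no evidence of a bound factor.

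The transglutaminases were near the bottom of the range. TGM1, the membrane-bound enzyme of the envelope, had 0.43 and 0.28 FPKM in the knockdown libraries, against 0.47 and 0.50 FPKM in the control libraries. These values do not overlap, but all 4 lie below 1 FPKM, the filter for testing. TGM2, the widely expressed tissue transglutaminase, had 0.76 FPKM in each knockdown library, against 1.65 and 1.60 FPKM in the control libraries. Both knockdown values lay below both control values, a 2.14-fold lower mean; the log2 difference of -0.58 was larger with the smaller pseudocount. TGM2 exceeded TGM1 in every library, by a ratio of 1.77 and 2.71 in the knockdown libraries, against 3.51 and 3.20 in the control libraries. TGM2 lies on the minus strand of chromosome 20, from 38127387 to 38166578, and shares 394 exon bases with RPRD1B on the other strand. RPRD1B had 16.31 and 14.78 FPKM in the knockdown libraries, against 13.85 and 13.37 FPKM in the control libraries, and how reads of the shared bases were divided is not given in the sources used here. TGM1 lies on the minus strand of chromosome 14, from 24249114 to 24264432, and overlaps no other gene of GENCODE 29.

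**Figure D2:**
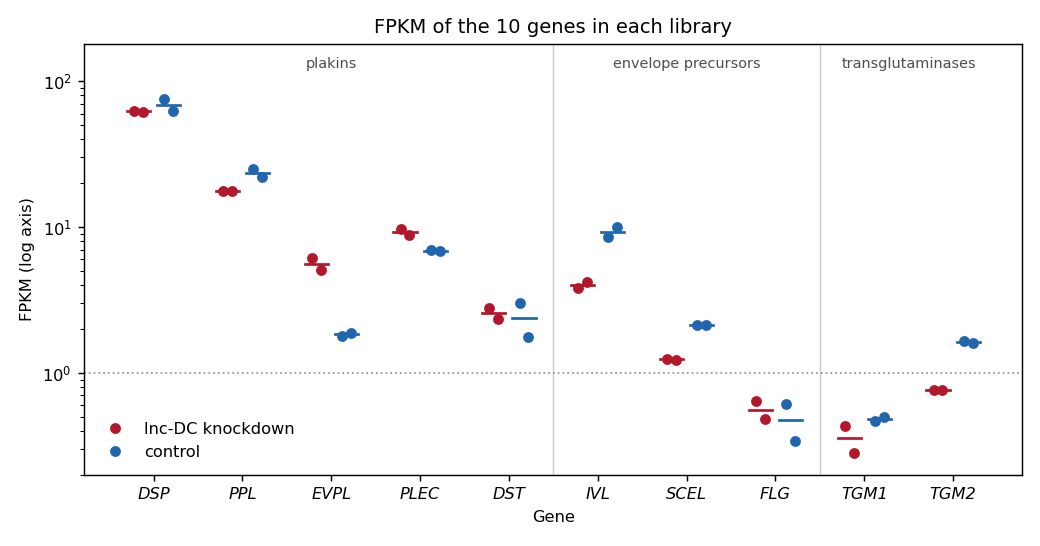
FPKM of the 10 genes (log axis) in each library, with lnc-DC knockdown left of control; points are single libraries, short lines are group means (n = 2 each) and the dotted line marks 1 FPKM. EVPL and PLEC are higher in both knockdown libraries, PPL, IVL, SCEL, TGM1 and TGM2 are lower in both, DST and FLG overlap, and DSP overlaps narrowly.

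The order of levels also differed between the groups. In the knockdown group it ran DSP, PPL, PLEC, EVPL, IVL, DST, SCEL, TGM2, FLG, TGM1, and no neighbours in that order overlapped in range. In the control group it ran DSP, PPL, IVL, PLEC, DST, SCEL, EVPL, TGM2, TGM1, FLG, where the range of DST covered those of SCEL and EVPL, and that of FLG covered that of TGM1. By group means EVPL stood in position 4 in the knockdown group and in position 7 in the control group, where it is not separated from DST, while IVL stood in position 5 in the knockdown group and in position 3 in the control group. IVL was 0.629 and 0.836 times the level of EVPL in the knockdown libraries, against 4.74 and 5.29 times in the control libraries. By its mean over the 4 libraries DSP lay above 95.9% of the 12411 tested genes, PPL above 85.0%, PLEC above 62.5%, IVL above 56.4% and EVPL above 37.9%. Of the tested members, TGM2 was the lowest, above 8.05% of tested genes.

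The comparison across all genes covered the 12411 genes whose mean reached 1 FPKM in either group, on the log2(FPKM + 1) scale with limma. Of the 10 genes 8 reached this filter, and TGM1 and FLG did not. TGM2 reached it through the control group alone, since its knockdown mean was 0.760 FPKM, so its entry depended on its difference. limma called 0 of the 8 at an adjusted p under 0.05, where 0.250% of all tested genes were called, 0.113% higher in the knockdown (14 genes) and 0.137% lower (17 genes). The split was 17 higher and 40 lower under quantile normalization and 13 higher and 24 lower with library medians set equal. At an unadjusted p under 0.05 it called 6 of the 8, 2 higher and 4 lower, where 22.8% of all tested genes were called. The groups did not overlap for the same 6, EVPL and PLEC higher and PPL, IVL, SCEL and TGM2 lower, where 54.8% of all tested genes did not overlap, 35.6% higher and 19.2% lower in the knockdown. Since these genes were picked with this comparison known, nothing is read from those counts. The median log2 difference was -0.27 over the 8 and 0.09 over all tested genes.

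Mitochondrially encoded transcripts took 28.1% and 26.8% of summed FPKM in the knockdown libraries, against 41.2% and 41.9% in the control libraries. With each library rescaled to the summed FPKM of the remaining genes, EVPL was 2.95-fold higher in the knockdown, IVL 2.36-fold lower, TGM2 2.21-fold lower, SCEL 1.77-fold lower and PPL 1.38-fold lower. No gene of the 10 changed sign with this rescaling.

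**Figure D3:**
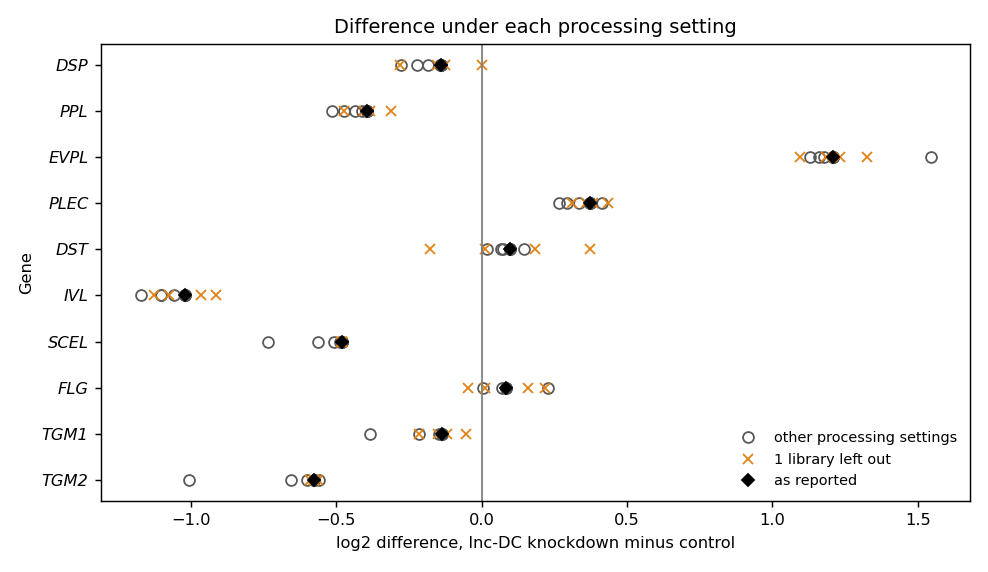
log2 difference of each gene, lnc-DC knockdown minus control (x axis), under the reported processing (diamonds), other processing settings (circles) and with 1 library left out (crosses). EVPL stays between 1.09 and 1.55 and IVL between -1.17 and -0.91, whereas DSP, DST and FLG reach or cross 0 when a control library is left out. Circles for another filter, variance trend or replicate term coincide with the diamond, since these cannot change the difference.

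Genes that act with the plakins and precursors were then taken from 9 lists, holding 149 genes of the table, of which 72 were tested. Over all genes limma called 2 of the 72, both lower in the knockdown (KRT4 and KRT15), and 70 did not pass. Of all tested genes 0.250% were called, 0.137% of them lower in the knockdown as a share of all tested genes. At an unadjusted p under 0.05 it called 2 higher and 18 lower, where 14.8% of all tested genes were called higher and 8.00% lower. The median log2 difference was -0.12 over the 72 and 0.09 over all tested genes. The lists were chosen with earlier results of these data known. Nothing is therefore read from the unadjusted counts or the medians, here or for the single lists below.

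Intermediate filaments, the cargo that plakins bind, held both calls. Of 16 genes 10 were tested, 2 fell and 8 did not pass, where 0.137% of all tested genes were called lower. The median log2 difference was -0.93. limma called 6 of the 10 lower and 0 higher at an unadjusted p under 0.05. Over all tested genes those shares were 8.00% and 14.8%. KRT4, made in the wet linings of mouth and oesophagus, fell to 1.41 and 1.22 FPKM in the knockdown libraries, against 16.20 and 19.53 FPKM in the control libraries (limma adjusted p = 0.0261). KRT15, a keratin found in the basal layer, fell to 9.24 and 8.71 FPKM in the knockdown libraries, against 30.31 and 33.00 FPKM in the control libraries (limma adjusted p = 0.0362). Neither call held with any 1 of the 4 libraries left out, where 1 group is left with a single library. The calls were also lost with no filter on low values (limma adjusted p = 0.17 for each) and with the replicate number as a block (0.0980 for each). No gene of the whole table passed under the last 2 settings. The loss is thus not particular to KRT4 and KRT15 there, nor is it with 1 library left out. KRT13, the partner of KRT4, had 246.59 and 312.74 FPKM in the knockdown libraries, against 969.89 and 1070.71 FPKM in the control libraries, just short of the threshold (limma adjusted p = 0.0533). KRT19, a keratin of simple epithelia, had 200.3 ± 2.81 FPKM in the knockdown group, against 353 ± 25.8 FPKM in the control group (SD, n = 2 each). KRT18, the partner of KRT8 in simple epithelia, had 231 ± 6.93 FPKM in the knockdown group, against 275 ± 22.1 FPKM in the control group.

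Of 14 desmosome partners, mainly the cadherins and armadillo proteins that desmoplakin joins to keratin, 9 were tested and limma called none over all genes. The median log2 difference was -0.10. At an unadjusted p under 0.05 limma called 1, lower, where 8.00% of all tested genes were called lower. That gene was DSC2, a desmosomal cadherin, with 2.52 and 2.30 FPKM in the knockdown libraries, against 4.37 and 3.63 FPKM in the control libraries (limma adjusted p = 0.127). JUP, which codes for plakoglobin, the link between desmosomal cadherins and desmoplakin, had 63.4 ± 12.3 FPKM in the knockdown group, against 73.0 ± 9.59 FPKM in the control group (SD, n = 2 each), a difference within its spread. KAZN, which codes for kazrin, a partner of periplakin, was below the filter, with 0.41 and 0.42 FPKM in the knockdown libraries, against 0.85 and 0.44 FPKM in the control libraries. DSG1, the cadherin of the upper layers, was listed at 0 in all 4 libraries.

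All 7 hemidesmosome partners were tested and limma called none over all genes. At an unadjusted p under 0.05, where 8.00% of all tested genes were called lower, 1 was lower. It was ITGA6, an integrin subunit of hemidesmosomes, with 11.76 and 14.48 FPKM in the knockdown libraries, against 27.11 and 16.88 FPKM in the control libraries (limma adjusted p = 0.213). Its partner ITGB4, to which plectin binds, had 28.67 and 20.87 FPKM in the knockdown libraries, against 31.72 and 25.13 FPKM in the control libraries, and these ranges overlapped. COL17A1, the transmembrane collagen that dystonin and plectin hold, had 19.82 and 18.59 FPKM in the knockdown libraries, against 16.68 and 15.04 FPKM in the control libraries (limma adjusted p = 0.256).

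Other transglutaminases were at or close to 0. TGM3, the cytosolic enzyme of the upper epidermis, TGM6 and F13A1 were listed at 0 in all 4 libraries, and TGM4, TGM5 and TGM7 did not exceed 0.17 FPKM. Among the helpers on that list limma called none of 5 tested genes over all genes. At an unadjusted p under 0.05, where 8.00% of all tested genes were called lower, 1 was lower. It was RARRES3, which codes for TIG3, a protein known to activate TGM1, with 8.30 and 11.05 FPKM in the knockdown libraries, against 20.14 and 22.36 FPKM in the control libraries (limma adjusted p = 0.0803). The protease CTSD, which processes TGM1, had 92.4 ± 8.73 FPKM in the knockdown group, against 115 ± 25.3 FPKM in the control group (SD, n = 2 each).

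Of 42 other envelope precursors 6 were tested, 36 were not, and 20 were listed at 0 in all 4 libraries, among them LOR, which codes for loricrin, and SPRR3. limma called none of the 6 over all genes. At an unadjusted p under 0.05 it called 1 higher and 1 lower, where 14.8% of all tested genes were called higher and 8.00% lower. PI3, which codes for elafin, a protease inhibitor that is cross-linked into the envelope, had 146.69 and 164.35 FPKM in the knockdown libraries, against 87.84 and 97.27 FPKM in the control libraries (limma adjusted p = 0.0894). S100A10, a transglutaminase substrate that pairs with annexin A2, had 334.12 and 326.00 FPKM in the knockdown libraries, against 441.88 and 510.90 FPKM in the control libraries (limma adjusted p = 0.134). ANXA1, a membrane-binding substrate, had 159 ± 9.67 FPKM in the knockdown group, against 152 ± 4.51 FPKM in the control group (SD, n = 2 each), and these ranges overlapped.

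Among genes of filaggrin processing 10 of 14 were tested and limma called none over all genes. At an unadjusted p under 0.05 it called 3 lower and 0 higher, where 8.00% of all tested genes were called lower and 14.8% higher. KLK7, a desquamation protease, had 1.19 and 1.38 FPKM in the knockdown libraries, against 4.38 and 3.92 FPKM in the control libraries (limma adjusted p = 0.0661). KLK5, which activates KLK7, had 14.2 ± 0.346 FPKM in the knockdown group, against 21.0 ± 0.856 FPKM in the control group (SD, n = 2 each). PRSS8, which codes for prostasin, had 9.87 ± 2.25 FPKM in the knockdown group, against 15.1 ± 0.339 FPKM in the control group. Of 14 genes for envelope lipids 7 were tested and limma called none over all genes. At an unadjusted p under 0.05, where 8.00% of all tested genes were called lower, 1 was lower. It was NIPAL4, which codes for ichthyin, with 3.03 and 3.50 FPKM in the knockdown libraries, against 5.17 and 4.99 FPKM in the control libraries (limma adjusted p = 0.119).

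Of 27 regulators of envelope genes, most of them transcription factors, 17 were tested and limma called none over all genes. At an unadjusted p under 0.05 it called 1 higher and 4 lower, where 14.8% of all tested genes were called higher and 8.00% lower. CEBPA, 1 of the 4, reached the filter through the control group alone, with means of 0.85 FPKM in the knockdown group and 1.695 FPKM in the control group. Its entry thus depended on its difference. Among the AP-1 factors, FOSL1 had 35.84 and 25.47 FPKM in the knockdown libraries, against 9.14 and 19.19 FPKM in the control libraries (limma adjusted p = 0.181). JUNB had 31.13 and 26.95 FPKM in the knockdown libraries, against 43.75 and 42.72 FPKM in the control libraries (limma adjusted p = 0.109). These members of 1 dimerising family thus lay on opposite sides of the control, neither past the threshold. ELF3, an ETS factor of epithelia, had 22.68 and 23.91 FPKM in the knockdown libraries, against 51.12 and 53.35 FPKM in the control libraries (limma adjusted p = 0.0533). KLF4, a zinc-finger factor of the upper layers, had 3.77 and 3.64 FPKM in the knockdown libraries, against 5.62 and 5.26 FPKM in the control libraries (limma adjusted p = 0.126).

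**Figure D4:**
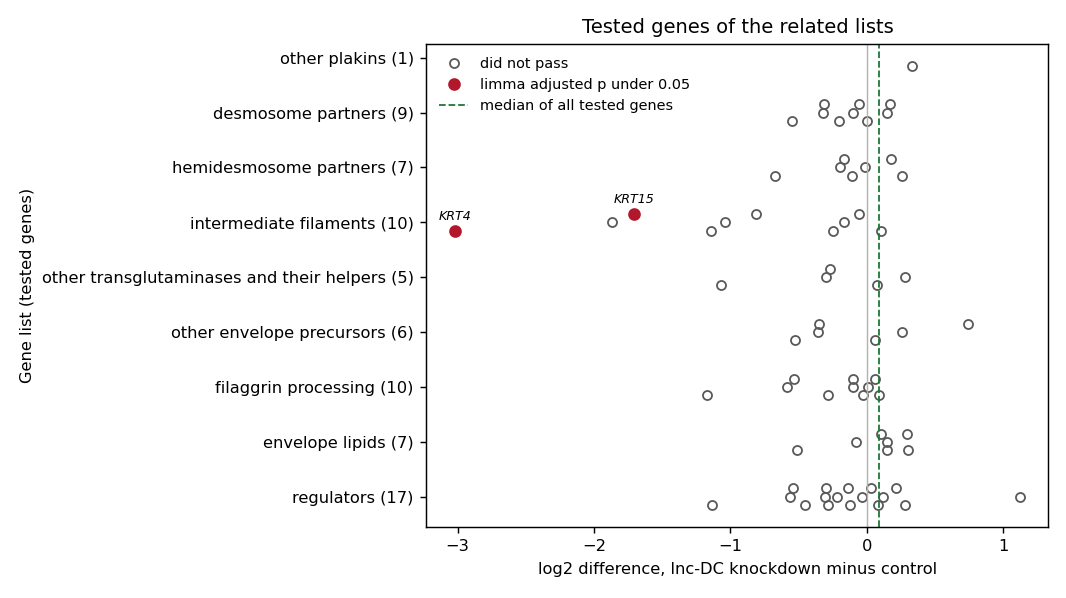
log2 difference, lnc-DC knockdown minus control (x axis), of the tested genes in each of 9 lists; each circle is 1 gene, filled where the limma adjusted p is under 0.05, and the dashed line is the median of all tested genes (0.09). The 2 filled genes, KRT4 and KRT15, lie in the list of intermediate filaments, and the remaining 70 are open.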

How the data were processed

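The authors deposited 1 table with an FPKM value per gene and library (2 decimals), a ratio (fold) of the group means, knockdown over control, and the log2 of that ratio, per the file headers. The deposited ratio and log2 columns were not used for the values given. Per the submitters' processing notes, the tools were edgeR, DESeq2, StringTie 1.3.4d, HISAT2 2.0.4 and cutadapt 1.9, in roles that the notes leave out; the sources used here name no build, annotation or strand setting. Per the labels' protocols, mRNA was selected with oligo(dT) and the second strand marked with dUTP. There were 0 columns without a sample. Because FPKM is a share of the library, abundant transcripts move all other values. Gene IDs were matched to GENCODE 29 (58552 of 58825).

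Here values were taken as log2(FPKM + 1), and genes whose mean reached 1 FPKM in either group entered limma 3.58.1 (R 4.3.3; trend, group as the only term, two-sided, Benjamini-Hochberg over all tested genes, threshold 0.05). An exact permutation test of 2 against 2 cannot go below p = 0.333. The labels call the replicates biological but do not say whether they came from separate cultures. If they did not, p-values cover only library-to-library spread, which may be technical. Given log2 differences understate the change of low genes; folds are ratios of mean FPKM. On simulated data for this comparison (12411 genes) the fit recovered 78.8% of 2-fold changes and 98.4% of 4-fold changes, with 7.47% false calls. The changes were added on the log2(FPKM + 1) scale, only to genes with a mean above 2 on it. They went to far fewer genes than the 2827 with an unadjusted limma p under 0.05 in these data. The simulated spread was normal and taken from the fit itself. These percentages therefore do not apply to lower genes such as SCEL, DST and TGM2, and real data may give fewer calls. KRT13, 3.65-fold lower in the knockdown, did not pass here, whereas KRT15, 3.53-fold lower, did. The genes and lists were chosen with earlier results of these data known. From each list, the genes past the threshold, the 3 with the smallest p and the 3 with the highest mean could be named. DSG1, KAZN, TGM3 to TGM7, F13A1, LOR, SPRR3, EPPK1, EVPLL, CEBPA and the overlapping genes were named after their values were seen. Alternatives varied the pseudocount, filter, scaling, variance trend, replicate term and libraries.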

Additional observations from a re-analysis of the deposited data

How the results depend on the processing

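The number of genes past the threshold, 31, was 58 with a filter of 5 FPKM, 57 under quantile normalization and 17 without the variance trend. It was 0 with no filter (3876 genes at an unadjusted limma p under 0.05) and 0 to 0 with 1 library left out (1797 to 2251 genes). Of the 72 related genes 2 passed; 4 did with a filter of 5 FPKM, under quantile normalization and when rescaled to genes outside mitochondrial DNA (KRT4, KRT15, KRT13 and ELF3 each time), 0 with no filter (25 at an unadjusted p under 0.05) and 0 to 0 with 1 library left out (14 to 21). None of the 10 genes passed under any of the 12 alternatives (3 to 6 at an unadjusted p under 0.05). Replicate numbers are shared by the groups; the replicate 1 minus replicate 2 differences correlated across genes at a Pearson r of 0.124, and nothing in the labels pairs the libraries. With the replicate number as a block, 0 genes and 0 related genes passed (3791 and 25 at an unadjusted p under 0.05; limma adjusted p = 0.0980 for KRT4 and for KRT15).

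Of 113 recomputed log2 differences of the 10 genes, 95 moved by less than the replicate SD, 15 moved by more in the same direction and 3 changed sign: DSP (4.58e-05) without control replicate 1, and DST (-0.18) and FLG (-0.047) without control replicate 2. The cause of the sign changes was not tested. A change of filter, of the variance trend or a replicate term cannot change a difference of group means. Leaving out 1 of the 2 libraries of a group cannot move it beyond the replicate SD, except by rounding. The count of 95 is therefore no measure of how stable the values are. With 1 library left out the range was -0.28 to 4.58e-05 for DSP, -0.18 to 0.37 for DST and -0.047 to 0.22 for FLG. TGM1 and FLG, below the filter, gave no value under quantile normalization. Unknown depth limits what the values of TGM1 and FLG can show.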
